A study of Mus musculus with 20 samples.

Results

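The Necab genes (Necab1, Necab2 and Necab3) encode N-terminal EF-hand calcium-binding proteins, and their RNA was followed here in the cerebellum of a knock-in mouse model of spinocerebellar ataxia type 3 (SCA3). The genes were chosen by family, as the 3 of 29200 gene IDs in the count table that map to these symbols, and with the knowledge that Necab1 is much higher in 304Q/304Q mice of 12 months than in WT/WT mice of that age. The genotype difference at 12 months is therefore given as a description without a test, for all 3 genes, as are the age differences of Necab1, which hold the same libraries. The other contrasts of genotype and age were tested.

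Cerebellar RNA of 20 male C57BL6/N mice was sequenced, 1 library per mouse, in 4 groups of 5: WT/WT littermates aged 2 months, 304Q/304Q mice aged 2 months, and both genotypes at 12 months. WT/WT mice carry 2 unaltered Atxn3 alleles, whereas both Atxn3 alleles of 304Q/304Q mice hold an expanded, interrupted CAACAG repeat that encodes polyglutamine. The repeat was placed in the endogenous gene with zinc-finger nucleases, so that no transgene or outside promoter was involved, and 1 knock-in line was studied. The 2 ages stand before and after the onset of signs in these mice.

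An EF-hand is a helix-loop-helix fold whose loop holds a calcium ion. NECAB proteins combine it with a C-terminal domain related to bacterial antibiotic biosynthesis monooxygenases, an arrangement not shared with the classical calcium buffers of the cerebellum such as calbindin and parvalbumin. NECAB1 and NECAB2 mark subsets of neurons in brain and spinal cord. NECAB1 binds synaptotagmin 1, the calcium sensor of synaptic vesicle release, and NECAB2 binds the adenosine receptor encoded by Adora2a and the glutamate receptor encoded by Grm5. NECAB3 binds the adaptor proteins of Apba2 and Apba3, the kinase NEK2 and the asparaginyl hydroxylase of Hif1an.

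The genes lie on 3 chromosomes of GRCm38. Necab1 (ENSMUSG00000040536) is on the minus strand at chr4:14952245-15149794 and spans 197550 bases. Necab2 (ENSMUSG00000031837) is on the plus strand at chr8:119446719-119472640 and spans 25922 bases, and Necab3 (ENSMUSG00000027489) is on the minus strand at chr2:154544399-154558890 and spans 14492 bases. Each coding sequence is split over 13 exons and encodes 352 residues in Necab1, 389 in Necab2 and 353 in Necab3. The 3 genes differ in composition, with an exon GC content of 39.5% in Necab1, 63.6% in Necab2 and 55.6% in Necab3.

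The members resemble each other where the coding sequence enters the calcium-binding loop. The stretch of 60 coding bases shown here, taken from the GENCODE M21 transcripts of GRCm38, holds that place in each gene. Capitals mark the 39 bases that are identical in all 3 genes, and the run AAAAATGATGATGG encodes the start of the loop. Each stretch is exonic and crosses an intron, so that its genomic interval is longer than 60 bases: chr4:15111277-15148826 for Necab1 (coding bases 91 to 150, minus strand), chr8:119447256-119452107 for Necab2 (202 to 261, plus strand) and chr2:154555667-154558746 for Necab3 (94 to 153, minus strand).
Necab1: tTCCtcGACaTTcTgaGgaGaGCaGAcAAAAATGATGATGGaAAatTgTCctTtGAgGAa
Necab2: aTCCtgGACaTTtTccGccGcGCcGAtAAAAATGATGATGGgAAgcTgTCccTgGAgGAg
Necab3: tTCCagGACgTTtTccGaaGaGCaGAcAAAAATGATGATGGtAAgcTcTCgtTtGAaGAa

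Outside such stretches the genes have diverged. Over the whole coding sequence, identity was 55.7% between Necab1 and Necab2, 55.5% between Necab1 and Necab3 and 51.9% between Necab2 and Necab3. The longest run of identical bases between any pair was 23, shared by Necab1 and Necab3, and no window of 50 exon bases was shared among the 3. Necab1 shared 361 of its 5186 windows of that length with Gm11837, an antisense gene that overlaps its 3′ end, and Necab3 shared 23 of 2639 with 1700003F12Rik, while none of the 2047 windows of Necab2 was found in another gene. Whether the counting used the strand was not stated, so reads in those overlaps cannot be assigned with certainty.

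Library totals lay between 11385380 and 27636687 counts, with the highest in replicate 1 of the 304Q/304Q mice at 2 months and all others below it. Granule cell markers fixed by name were all abundant enough to test (12 of 12, with summed levels of 1609 to 2123 RPKM), so the libraries carried RNA of cerebellum. Of 10 forebrain neuron markers, 3 were tested. The forebrain list summed to 63.5 to 83.6 RPKM, above the 36.8 to 51.9 RPKM of the Golgi cell list. Whether forebrain RNA was present is not judged from that sum. In 6 libraries, 3 of WT/WT and 2 of 304Q/304Q mice at 12 months and 1 of 304Q/304Q mice at 2 months, the choroid plexus gene Ttr lay between 5356 and 28733 normalized counts, against 15 to 270 in the other 14. Normalized counts are the counts a library would have at the mean library size. A gene was tested where its mean over the 20 libraries was at least 50 counts, and 2 limits defined a differentially expressed gene (DEG), an adjusted p-value no higher than 0.05 and a log2 fold change of 0.5 or more in either direction. Of the Necab genes, Necab1 (mean 419 counts) and Necab3 (322) passed that filter easily. Necab2 passed only narrowly, with a mean of 50.1 counts, and did so through its values in WT/WT mice at 12 months. With no filter at all, its contrasts kept their direction and calls.

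Necab1 had its lowest levels in WT/WT mice at 12 months and its highest in 304Q/304Q mice of that age. Replicates 1 to 5 of the WT/WT mice at 2 months held 434, 400, 404, 293 and 204 normalized counts, with a mean of 347 ± 96.1 (SD, n = 5). The 304Q/304Q mice at 2 months held 370, 329, 460, 440 and 607 (441 ± 107). In these young mice the genotypes overlapped widely, and the lowest as well as the next lowest values belonged to WT/WT replicates 5 and 4.

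At 12 months, the WT/WT mice had 304, 298, 230, 218 and 232 normalized counts of Necab1 (257 ± 41.0). The 304Q/304Q mice had 569, 690, 584, 833 and 613 (658 ± 108). The lowest 304Q/304Q mouse thus lay well above the highest WT/WT mouse, with no overlap between the genotypes. Ordered by mean, the groups ran from WT/WT at 12 months over WT/WT at 2 months and 304Q/304Q at 2 months to 304Q/304Q at 12 months, and each neighbouring pair in that order overlapped.

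**Figure D1:**
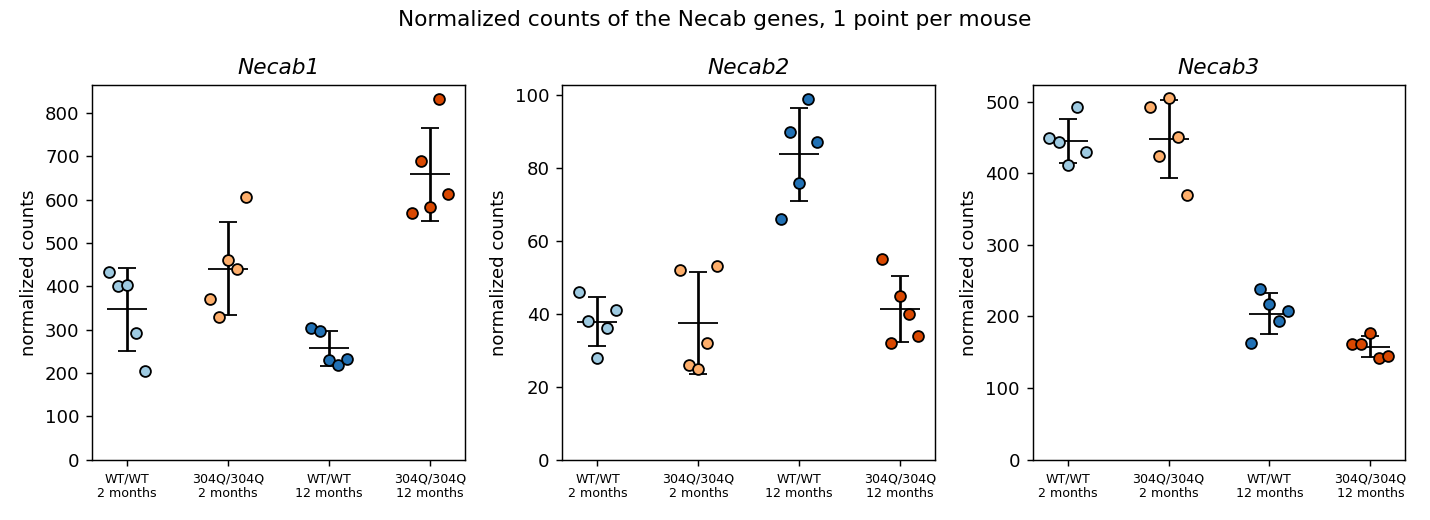
Normalized counts of Necab1, Necab2 and Necab3, with 1 point per mouse in each of the 4 groups; the horizontal line is the mean and the bar the SD (n = 5), and the vertical scales differ between genes. Necab1 of 304Q/304Q mice at 12 months (569 to 833) lies above all WT/WT mice of that age (218 to 304), Necab2 of WT/WT mice at 12 months (66 to 99) lies above every other group, and Necab3 is lower in all mice at 12 months (142 to 238) than in any at 2 months (370 to 505).

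At 2 months, Necab1 differed between the genotypes by a log2 fold change of 0.35 ± 0.174 (SE), with a 95% confidence interval from -0.01 to 0.71 (adjusted p = 0.883, Benjamini-Hochberg adjustment of edgeR's quasi-likelihood test). None of the 3 Necab genes was a DEG at that age, in a comparison in which 0.00823% of all 12153 genes tested were DEGs. With 3 surrogate variables as covariates, the difference of Necab1 was 0.48 (adjusted p = 0.0408 in edgeR's quasi-likelihood test and 0.0137 in DESeq2), which met the limit on the adjusted p but not that on the fold change. In the edgeR fit without surrogate variables, Necab1 had an unadjusted p = 0.0552, and the count of Necab genes under 0.05 was also 0. Of all 12153 genes tested, 674 were under 0.05 in that fit. Without replicate 5 of the WT/WT mice the difference was 0.21, and without replicate 5 of the 304Q/304Q mice it was also 0.21.

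At 12 months, Necab1 was 2.56-fold higher in 304Q/304Q mice, a log2 fold change of 1.36 ± 0.177. Only 6 of the 12153 genes tested had a higher one, a position that follows from how the gene was chosen. Within WT/WT mice the log2 fold change from 2 to 12 months was -0.43 ± 0.18, and within 304Q/304Q mice it was 0.58 ± 0.17. The former was -0.12 in DESeq2 and -0.11 in edgeR with surrogate variables and -0.24 with GC and length trends removed. The change of the genotype difference between the ages was 1.01 ± 0.247 on the log2 scale. These contrasts of Necab1 share the 12-month libraries by which it was picked and were not tested.

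Traits of the libraries moved with Necab1. The trend of a library's counts with the GC content of genes, in log2 units per 10 percentage points, ran from -0.08 to 0.20 in WT/WT mice at 12 months (median 0.13) and from -0.07 to 0.04 in 304Q/304Q mice of that age (median -0.03). Among WT/WT mice at 2 months, replicates 4 and 5 had slopes of 0.07 and 0.06 and the lowest Necab1, while replicates 1 to 3 had slopes of -0.19 to -0.12. With the trends of GC content and gene length removed, the 12-month difference of Necab1 was 1.19. Without the 6 libraries with choroid plexus RNA it was 1.66, and leaving out each library in turn gave 1.26 to 1.42.

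Necab2 was the scarcest of the 3 and stood out in WT/WT mice at 12 months. At 2 months, the WT/WT mice had 46, 38, 28, 36 and 41 normalized counts (37.9 ± 6.78, n = 5) and the 304Q/304Q mice 52, 26, 25, 32 and 53 (37.6 ± 14.0). At 12 months, the WT/WT mice had 66, 90, 76, 99 and 87 (83.7 ± 12.7). The 304Q/304Q mice of that age had 55, 32, 45, 40 and 34 (41.3 ± 9.13). All WT/WT mice at 12 months lay above all other mice, and the other 3 groups overlapped each other.

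From 2 to 12 months, Necab2 rose 2.20-fold in WT/WT mice, a log2 fold change of 1.14 ± 0.216, and the ages did not overlap. No p-value of this fit is given, because the filter of 50 counts admitted Necab2 through these same 12-month mice. With no filter on low counts, the difference was 1.14 ± 0.24 (adjusted p = 0.00278, Benjamini-Hochberg adjustment of edgeR's quasi-likelihood test). A higher fold change was found for 28 genes. In that contrast 2.58% of all genes tested were DEGs, and 6.57% had ages that did not overlap. Because Necab2 entered the test through its level in the WT/WT mice of 12 months, which are part of this contrast, nothing is read from its place among them. With the GC and length trends removed, the difference of Necab2 was 0.89, and without the libraries with choroid plexus RNA it was 1.21 (edgeR in both cases).

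In 304Q/304Q mice, the age difference of Necab2 was 0.10 ± 0.224, with a 95% confidence interval from -0.36 to 0.56 (adjusted p = 0.874, Benjamini-Hochberg adjustment of edgeR's quasi-likelihood test). That the difference missed the threshold here does not show that the ages act alike in the 2 genotypes, and the difference between the age effects, -1.04 ± 0.311 on the log2 scale, was not tested because it holds the 12-month genotype contrast. That contrast was -1.02 ± 0.215, so Necab2 was at 0.493 of its WT/WT level, and 48 genes had a lower fold change. Necab2 passed the filter through the WT/WT mice of this contrast, so nothing is read from its place. At 2 months the genotypes differed by 0.02 ± 0.224 (95% confidence interval -0.44 to 0.49, adjusted p = 0.993 in edgeR's quasi-likelihood test).

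The low counts bound what can be read from Necab2. Counting alone gives an error of 17.1% per WT/WT mouse at 2 months, against a spread of 17.9% between those mice, so these replicates varied about as much as their read numbers imply. Among 304Q/304Q mice at that age the spread was 37.2% against a counting error of 16.9%, with replicates 1 and 5 near double the other 3. For Necab1, counting errors of 4.14% to 6.50% were far below the spread between mice of 16% to 27.7%. For Necab3 the counting error was nearer to the spread, at 4.92% against 6.82% in WT/WT mice at 2 months and 8.38% against 9.15% in 304Q/304Q mice at 12 months.

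Necab3 fell with age in both genotypes. At 2 months, the WT/WT mice had 449, 443, 411, 493 and 430 normalized counts (445 ± 30.3, n = 5) and the 304Q/304Q mice had 493, 424, 505, 450 and 370 (448 ± 54.5). At 12 months, the WT/WT mice had 163, 238, 217, 194 and 207 (204 ± 28.2). The 304Q/304Q mice of 12 months had 162, 162, 177, 142 and 145 (158 ± 14.4). No mouse of 12 months reached the level of any mouse of 2 months, while the genotypes overlapped at both ages.

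The fall of Necab3 in WT/WT mice was 2.18-fold, a log2 fold change of -1.13 ± 0.102 with a 95% confidence interval from -1.34 to -0.91 (adjusted p = 2.16e-07, Benjamini-Hochberg adjustment of edgeR's quasi-likelihood test), and only 7 genes had a lower one. In 304Q/304Q mice it was 2.85-fold, a log2 fold change of -1.51 ± 0.104 with an interval from -1.73 to -1.30 (adjusted p = 1.57e-09 in the same edgeR test), with 4 genes lower. Necab3 was a DEG with age in both genotypes, and so were 2.28% of all genes in 304Q/304Q mice. Groups that did not overlap with age in 304Q/304Q mice, as those of Necab3, were found for 7.8% of all genes. The 2 age contrasts use different mice. The genotypes differed by 0.01 ± 0.0971 at 2 months (95% confidence interval -0.19 to 0.21, adjusted p = 0.993 in edgeR's quasi-likelihood test) and by -0.37 ± 0.108 at 12 months, the latter not tested.

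**Figure D2:**
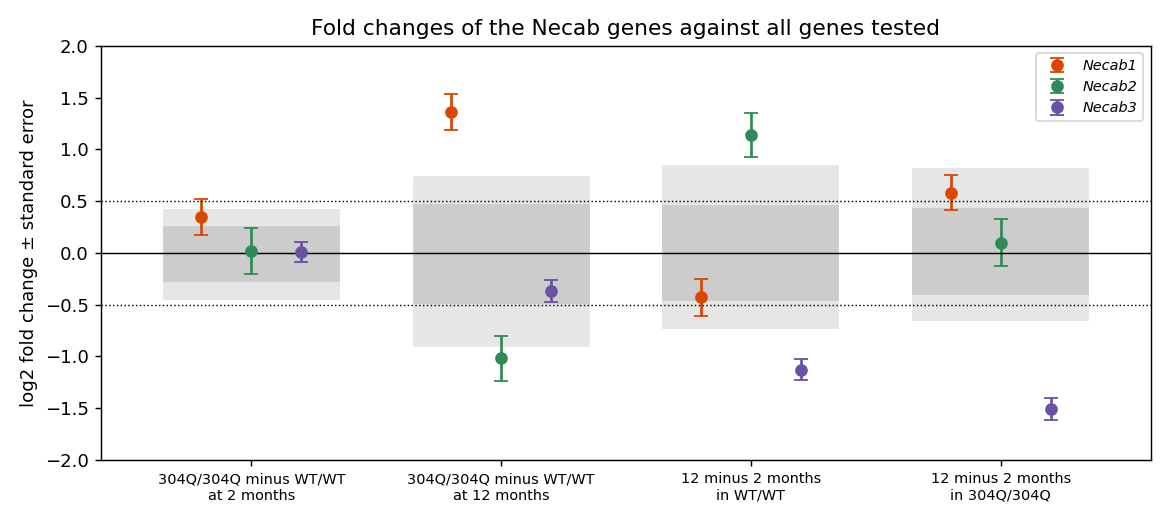
Log2 fold changes ± SE of Necab1, Necab2 and Necab3 in 4 contrasts, from 20 libraries in 1 edgeR model; dark and light grey bands hold the central 95% and 99% of the fold changes of all 12153 genes tested, and dotted lines mark a log2 fold change of 0.5 in size. At 2 months all 3 genes lie within the light band, at 12 months Necab1 (1.36) and Necab2 (-1.02) lie outside it on opposite sides, and with age Necab3 lies far below it in both genotypes (-1.13 and -1.51). The place of Necab1 at 12 months follows from how the gene was chosen. Necab2 passed the filter through the WT/WT mice of 12 months, so nothing is read from its place in contrasts with those mice.

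At 12 months, the groups of Necab1 and Necab2 did not overlap between the genotypes, in opposite directions, and those of Necab3 did. Over all genes tested, 8.94% had groups that did not overlap in that contrast, 3.51% with 304Q/304Q mice higher and 5.43% with them lower. As the genes were chosen with this contrast in view, nothing is read from their count.

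Levels of different genes were compared per length, as RPKM, which divides the counts by the length of annotated exon and by the size of the library. In WT/WT mice at 2 months, Necab3 was the most abundant with a mean of 12.2 RPKM, followed by Necab1 with 4.63 and Necab2 with 1.26. In 304Q/304Q mice at 2 months the levels were 12.3, 5.89 and 1.26 RPKM in the same order, and this order held within each of the 10 mice of that age. At 12 months, the WT/WT mice had 5.59 RPKM of Necab3, 3.42 of Necab1 and 2.79 of Necab2. That order held in 4 of 5 mice, and in the other mouse Necab2 exceeded Necab1.

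In 304Q/304Q mice at 12 months, Necab1 led with 8.78 RPKM, ahead of Necab3 with 4.32 and Necab2 with 1.38. Necab1 led Necab3 in 5 of 5 of these mice and in none of the 15 others. The log2 ratio of Necab1 to Necab3 within a mouse ran from 0.68 to 1.52 in them, and from -0.96 to -0.14 in WT/WT mice of the same age. Since the ratio contains the Necab1 values that chose the gene, it is a description.

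As shares of the summed RPKM of the 3 genes, Necab1 made up 25.3% ± 5.96 in WT/WT mice and 30.2% ± 6.24 in 304Q/304Q mice at 2 months. At 12 months its share was 29.1% ± 5.10 in WT/WT mice and 60.4% ± 5.60 in 304Q/304Q mice. The share of Necab2 was 7.0% and 6.42% at 2 months, and 23.7% in WT/WT mice and 9.58% in 304Q/304Q mice at 12 months. The summed level went from 18.1 RPKM in WT/WT mice and 19.4 in 304Q/304Q mice at 2 months to 11.8 and 14.5 at 12 months. In WT/WT mice, Necab3 dominated the shares at 2 months and the shares were more even at 12 months. In 304Q/304Q mice of 12 months, Necab1 had the largest share. These shares are descriptions, as they contain the Necab1 values that chose the gene and the values through which Necab2 passed the filter.

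**Figure D3:**
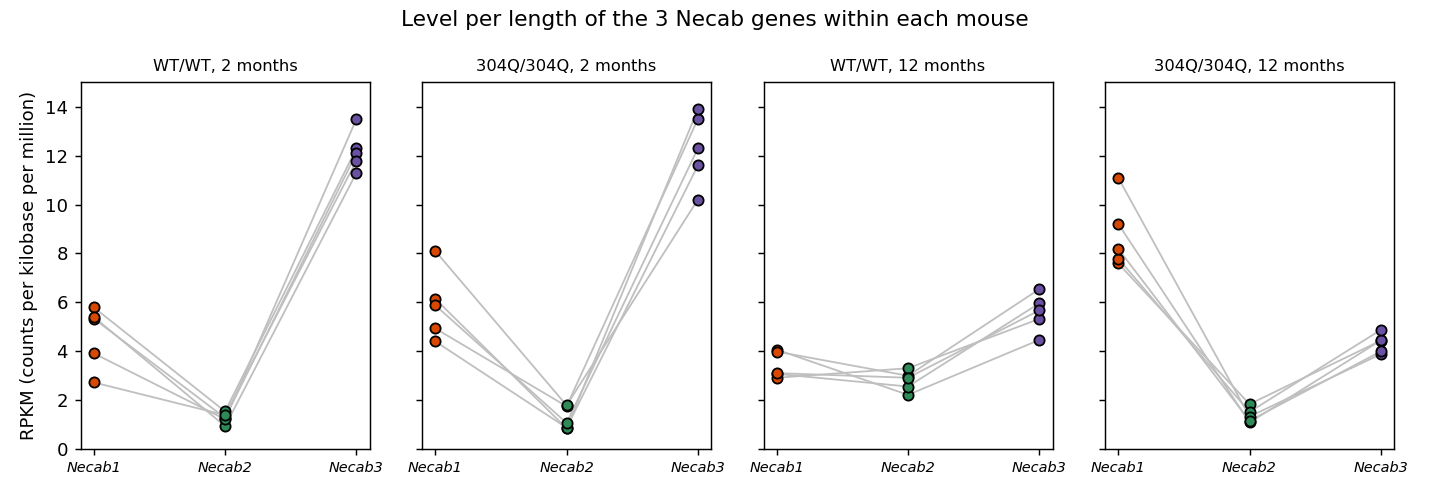
Level per length (RPKM) of the 3 Necab genes in each mouse, with 1 panel per group and a grey line joining the genes of 1 mouse. Necab3 is the highest of the 3 in all mice of the first 3 panels, at means of 12.2, 12.3 and 5.59 RPKM, and Necab1 is the highest in all 5 mice of the last panel, at a mean of 8.78 RPKM.

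Genes for known binding partners of NECAB proteins were read in the same contrasts, and whether they follow the Necab genes was not tested. Of 7 partner genes, 6 were tested and Adora2a was too low. At 12 months, 1 of the 6 was a DEG, against 3.09% of all genes. It was Nek2, whose kinase acts at the centrosome, with 103 ± 11.1 normalized counts in 304Q/304Q and 171 ± 34.3 in WT/WT mice and a log2 fold change of -0.73 (adjusted p = 0.00106, edgeR's quasi-likelihood test). Nek2 also fell from 2 to 12 months in 304Q/304Q mice, from 157 ± 19.3, with a log2 fold change of -0.61 (adjusted p = 0.00699, edgeR). The groups of Nek2 did not overlap in either contrast. Over all genes tested, 8.94% had such groups between genotypes at 12 months and 7.8% with age in 304Q/304Q mice. With age in 304Q/304Q mice, 2.28% of all genes were DEGs.

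Apba3, an adaptor that binds NECAB3, differed at 12 months by -0.36 (adjusted p = 0.0417, edgeR) and with age in WT/WT mice by 0.41 (adjusted p = 0.0212, edgeR), both under the limit on the fold change. Syt1, which encodes the partner of NECAB1, was at 8009 ± 515 normalized counts in 304Q/304Q and 7628 ± 386 in WT/WT mice at 12 months (log2 fold change 0.07, adjusted p = 0.336, edgeR). Grm5, whose receptor binds NECAB2, was scarce and at 98.4 ± 16.3 against 87.1 ± 19.4 (0.17, adjusted p = 0.581, edgeR). Apba2 differed by -0.02 and Hif1an by 0.00 in that contrast. By edgeR's quasi-likelihood test, 0 of the 6 partners were DEGs between genotypes at 2 months and 0 with age in WT/WT mice, with 1 and 2 of them at an unadjusted p under 0.05, and DESeq2 as well as both fits with surrogate variables also called 0. Over all genes tested, edgeR called 0.00823% at 2 months and 2.58% with age in WT/WT mice. An unadjusted p under 0.05 was found for 674 and 3344 of all 12153 genes in these contrasts (edgeR). The median log2 fold change of the partners was -0.01 at 12 months, next to -0.004 over all genes.

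Other EF-hand genes of neurons are given beside the Necab genes. Of 37 such genes fixed by name, 32 were tested, and 1 was higher and 2 lower in 304Q/304Q mice at 12 months, next to 3.09% of all genes that were DEGs. Calb2 (calretinin), a calcium buffer of granule and unipolar brush cells, rose to 9415 ± 322 normalized counts from 6524 ± 521 in WT/WT mice, a log2 fold change of 0.53 (adjusted p = 3.36e-06, edgeR's quasi-likelihood test). Cabp7, a calmodulin-like sensor, was lower at 931 ± 59.2 against 1433 ± 103 (-0.62, adjusted p = 8.99e-06, edgeR). Kcnip1, an accessory subunit of Kv4 potassium channels, was lower at 828 ± 62.0 against 1192 ± 123 (-0.52, adjusted p = 0.000114, edgeR). The fold changes of Necab1 and Necab2, given as descriptions, lay beyond those of every EF-hand gene on their side. For Necab1 this follows from how the gene was chosen, and nothing is read from the order.

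The median of the 32 EF-hand genes was -0.10 in that contrast, with 12 positive and 20 negative values. Without the libraries with choroid plexus RNA, 5 of them were DEGs, as were 350 of all 12153 genes tested. Leaving out each library in turn gave 2 to 3 DEGs among the 32, and 298 to 541 among all genes tested. At 2 months 0 were DEGs by edgeR, DESeq2 and both fits with surrogate variables, with 5 at an unadjusted p under 0.05. Calb2 was the exception to the adjusted p alone at that age, at 8452 ± 597 in 304Q/304Q against 6555 ± 618 in WT/WT mice (0.37, adjusted p = 0.0148, edgeR). With age, 0 were DEGs in WT/WT mice by the same 4 fits (11 at an unadjusted p under 0.05), and 1 was in 304Q/304Q mice, Cib2, with a log2 fold change of 0.53 (adjusted p = 0.00712, edgeR). That call was lost without the libraries with choroid plexus RNA or without replicate 4 of the 304Q/304Q mice at 2 months. In these fits 208 and 252 of all genes tested were DEGs in that contrast, against 277 with all libraries. Over all genes tested, edgeR called 0.00823% at 2 months, 2.58% with age in WT/WT mice and 2.28% with age in 304Q/304Q mice. An unadjusted p under 0.05 was found for 674 of all 12153 genes at 2 months and 3344 with age in WT/WT mice (edgeR). Nothing is read from the EF-hand counts in these contrasts.

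**Figure D4:**
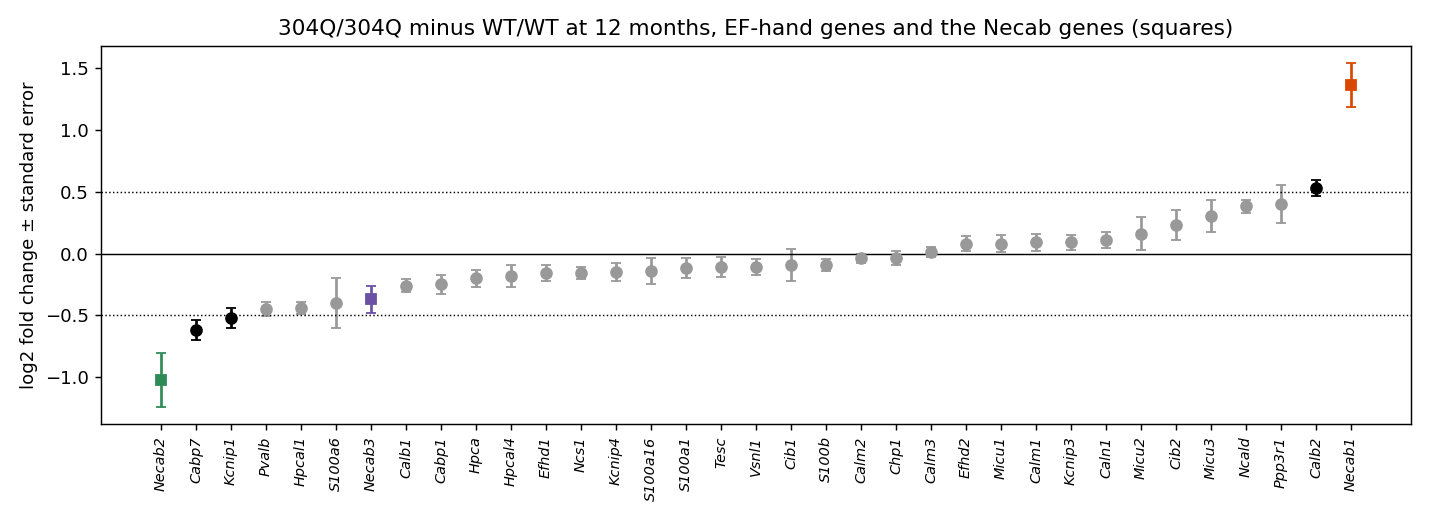
Log2 fold changes ± SE of 304Q/304Q over WT/WT mice at 12 months (5 mice each) for the 32 EF-hand genes tested (circles, black where called as DEGs) and the 3 Necab genes (coloured squares), ordered by value; dotted lines mark 0.5 in size. Necab2 (-1.02) and Necab1 (1.36) form the ends of the row, and the called EF-hand genes are Cabp7 (-0.62), Kcnip1 (-0.52) and Calb2 (0.53). The place of Necab1 follows from how the gene was chosen.

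Genes next to the Necab genes on the chromosome were read in the same libraries. Of 17 annotated genes within 100 kb, 9 were tested. By edgeR, DESeq2 or the fits with surrogate variables, 0 were DEGs in any of the 4 contrasts. In the order genotype at 2 and 12 months and age in WT/WT and 304Q/304Q mice, 0, 0, 1 and 1 had an unadjusted p under 0.05 (edgeR). Of all 12153 genes tested, 674, 3321, 3344 and 2326 had such a p in that order (edgeR). Over all genes tested, 0.00823%, 3.09%, 2.58% and 2.28% were DEGs in that order, so nothing is read from the count of neighbours. The antisense gene Gm11837 at the end of Necab1 had 0 to 11 counts per library. Scaled, its mean at 12 months was 7.07 in WT/WT mice and 4.95 in 304Q/304Q mice. Within the span of Necab3 and on the opposite strand, 1700003F12Rik had 0 to 16 counts and Actl10 0 to 12. Both had lower means at 12 than at 2 months, in WT/WT mice 3.27 against 6.73 for 1700003F12Rik after scaling and 3.10 against 9.15 for Actl10. How many reads of these genes were counted on the other strand was not tested. E2f1, which lies just upstream of Necab3 on the same strand, encodes a transcription factor of the cell cycle. It was also under the filter, with means of 41.4 and 31.9 in WT/WT and 45.2 and 19.5 in 304Q/304Q mice at 2 and 12 months.

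The genes most like Necab1 over the 20 libraries, by Pearson's r of log2 CPM across all libraries, were Rgs17 (r = 0.923), Pde3a (0.922), Slitrk2 (0.919), Rian (0.903) and Tbc1d16 (0.884). Rgs17 encodes a regulator of G-protein signalling, Pde3a a cyclic nucleotide phosphodiesterase, Slitrk2 a synaptic membrane protein and Rian an imprinted noncoding RNA. Their log2 fold changes at 12 months were 0.92, 0.99, 0.71, 0.53 and 0.40, all below that of Necab1. The lowest correlations were those of Fam20c (-0.904), Rnf19b (-0.896) and Ppp1r1b (-0.895), the latter the gene of the dopamine-regulated phosphatase inhibitor DARPP-32. Such correlations include the differences between the 4 groups that the libraries share. The part of depth and base composition in them was not tested.

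When each group's mean was taken away first, different genes led for Necab1: Lmbrd1 (r = 0.930), Dctn4 (0.898), Rnpc3 (0.889), Pgm2l1 (0.883) and Sp4 (0.874). For Necab2, the highest over all libraries were Camkk1 (0.843), a kinase that activates calmodulin-dependent kinases, and Ptk2b (0.814), a calcium-responsive tyrosine kinase, and the lowest was Slc16a14 (-0.843). Ptk2b had log2 fold changes of 1.62 with age in WT/WT mice and of -1.04 between genotypes at 12 months. For Necab3, the highest were Col23a1 (0.961), a transmembrane collagen, and Cdk16 (0.957), a cyclin-dependent kinase. The lowest for Necab3 were Zc3hav1 (-0.960), an antiviral zinc-finger protein, Ctss (-0.955), a microglial protease, and Fam163b (-0.950). Necab3 and Col23a1 had like log2 fold changes with age, -1.13 and -1.06 for WT/WT mice, -1.51 and -1.36 for 304Q/304Q mice. These values are across 20 libraries in 4 groups and are descriptions.

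Markers of several cell types moved in the same contrasts as the Necab genes, and in bulk RNA fewer cells of a type and less RNA per cell cannot be told apart. The shares of DEGs over all genes tested, against which these counts stand, were 3.09% between genotypes at 12 months, 2.58% with age in WT/WT mice and 2.28% with age in 304Q/304Q mice. Between genotypes at 12 months, 3321 of all 12153 genes tested had an unadjusted p under 0.05 (edgeR). At 12 months, 5 of 12 Purkinje cell markers were lower in 304Q/304Q mice, with summed levels of 1201 to 1276 RPKM against 1543 to 1755 in WT/WT mice, among them Rgs8 and Pcp2. With surrogate variables, 1 of these markers was called by DESeq2 and 2 by edgeR. Of 14 markers of myelinating oligodendrocytes, 5 were lower (598 to 818 against 889 to 1008 RPKM), and of 12 markers of astrocytes and Bergmann glia 3 were lower (945 to 1045 against 1213 to 1287 RPKM). Of the 6 unipolar brush cell markers tested, Calb2 rose and Eomes, their transcription factor, was lower with 175 ± 45.1 normalized counts against 734 ± 381 (log2 fold change -2.06, adjusted p = 0.0010, edgeR). None of the granule cell, molecular layer interneuron or endothelial markers was a DEG in that contrast by edgeR's quasi-likelihood test, with 4 of 12, 5 of 10 and 3 of 8 at an unadjusted p under 0.05, nor by DESeq2 or the fits with surrogate variables. Of 5 Golgi cell markers tested, Grm2 was lower in edgeR and DESeq2 but not with surrogate variables. Forebrain neuron, oligodendrocyte precursor, microglial and meningeal markers gave 0 DEGs at 12 months in each of the 4 fits, with 1 of 3, 2 of 8, 3 of 11 and 2 of 6 at an unadjusted p under 0.05. Of 4 choroid plexus markers tested, 0 were DEGs in edgeR and in DESeq2 (0 at an unadjusted p under 0.05), and 1 was in each fit with surrogate variables.

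A single catecholamine marker is given beside Necab2. Th, tyrosine hydroxylase, had a log2 fold change of 1.01 with age in WT/WT mice (adjusted p = 7.93e-05, edgeR) and of -0.76 between genotypes at 12 months (adjusted p = 0.000579, edgeR), and it was the gene called in both contrasts among 5 tested markers of cerebellar nuclei and brainstem neurons. Summed over 18 genes, that list lay at 67.9 to 78.3 RPKM in WT/WT and 48.0 to 65.6 in 304Q/304Q mice at 12 months. In WT/WT mice at 2 months it lay at 59.9 to 78.0 RPKM, which overlaps the 12-month range. With the fall of Necab3, microglial markers rose, 8 of 11 tested in WT/WT mice (147 to 174 RPKM at 12 months against 89.0 to 101 at 2 months) and 8 of 11 in 304Q/304Q mice (151 to 202 against 85.3 to 93.8). Of the oligodendrocyte markers, 1 of 14 was lower with age in WT/WT and 8 of 14 in 304Q/304Q mice. Over all genes tested, 2.58% were DEGs with age in WT/WT mice and 2.28% in 304Q/304Q mice. The part of these cell types in the values of the Necab genes was not tested.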

How the data were processed

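Counts of polyA-enriched cerebellar RNA from 20 mice were analysed. Reads were aligned by the authors with STAR (2.4.5b per the labels) to GRCm38, assigned to genes with Rsubread, and deposited as whole-number counts with no normalization; whether the counting used the strand is not given in the sources used here. Each column was matched to 1 mouse by its name. Symbols of 29150 of 29200 IDs came from GENCODE M21.

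Counts were scaled by TMM in edgeR 4.0.16 (R 4.3.3). The 12153 genes that averaged 50 or more counts (99.3% of counts) were fitted together, with a term for each of 4 groups, by edgeR's quasi-likelihood method, with Benjamini-Hochberg adjustment over all of them. Log2 CPM used a prior count of 2. The common biological coefficient of variation was 0.113, and library totals of 11385380 to 27636687 counts leave counting errors of 4.14% to 17.1% per mouse for the Necab genes. Replicates differed beyond sampling noise (chi-square over degrees of freedom of 4.43 or more), and each was counted once. Simulated counts of 12099 genes with 200 changed by 1 on the log2 scale, for 304Q/304Q against WT/WT at 12 months, gave 193 recovered and 6 false calls by edgeR, and 192 and 7 by DESeq2.

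The members and the 16 gene lists were chosen with earlier results of these data known. Named were the Necab genes, tested partners, up to 4 called genes of a list with the smallest adjusted p, overlapping genes and the 5 most and 3 least correlated with Necab1. Likeness to Necab2 and Necab3, the neighbour E2f1, and Eomes, Rgs8, Pcp2 and Th beside the members' values were named after values were seen. So were removal of GC and length trends (natural splines with 4 degrees of freedom, as an offset in edgeR) and leaving out libraries with over 1000 normalized counts of Ttr. Other alternatives were DESeq2 1.42.0, 3 surrogate variables (sva 3.50.0) in DESeq2 and edgeR, DESeq2's size factors, 3 filters, only the groups compared, a replicate block and each library left out. Scgn, Chat, Dlx5 and Dlx6, which stand on these lists, and the human libraries were not analysed here.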

Additional observations from a re-analysis of the deposited data

How the results depend on the processing

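The calls of Necab2 and Necab3 with age and at 2 months, and that of Necab1 at 2 months, stayed on the same side of the DEG limits in each alternative that gave a value; Necab2 could not be fitted under a filter of 50 counts in every library. Over all alternatives, the log2 rise of Necab2 with age in WT/WT mice ran from 0.89 to 1.22. Its calls under the filter of 50 counts rest on the mice that admitted it, so nothing is read from them. The change of the genotype difference with age, -1.04 for Necab2, was -1.44 without the libraries with choroid plexus RNA. For Necab3, -0.39 became -0.20 with 3 surrogate variables in DESeq2 and -0.20 in edgeR. The age difference of Necab1 in WT/WT mice shrank from -0.43 to -0.11 in edgeR with surrogate variables. Without the libraries with choroid plexus RNA, 5 EF-hand genes were DEGs at 12 months (3 with all libraries) and 0 with age in 304Q/304Q mice (1 with all). With each library left out in turn, partner genes called with age in WT/WT mice ran from 0 to 1 (1 without replicate 4 of WT/WT at 2 months), EF-hand genes called with age in WT/WT mice from 0 to 1 (1 without replicate 5 of WT/WT at 2 months) and in 304Q/304Q mice from 0 to 1 (0 without replicate 4 of 304Q/304Q at 2 months). Over all genes tested, DEGs with age in WT/WT mice were 423 without replicate 4 and 403 without replicate 5 of WT/WT at 2 months (314 with all). With age in 304Q/304Q mice they were 252 without replicate 4 of 304Q/304Q at 2 months and 208 without the choroid plexus libraries (277 with all). At 12 months they were 350 without those libraries (375 with all). Nothing is read from the shifts of the list counts, and the cause was not tested.

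Replicate numbers did not pair the mice: deviations of same-numbered mice from their group means correlated at -0.323 to 0.551 over 30 pairs, 6 of them over 0.1. With the replicate number as a block, Necab1 differed by 0.36 at 2 and 1.36 at 12 months, and Necab2 rose with age in WT/WT mice by 1.16. The log2 age differences of Necab3 were -1.13 (WT/WT) and -1.51 (304Q/304Q), and no call of a member changed. Over all genes, 364 in place of 375 were DEGs at 12 months. Depth limits Necab2 most, with 24 to 101 counts per library.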
